A study of Rattus norvegicus with 8 samples.

Results

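The nuclear genes for the mitochondrial respiratory chain and for protein import into mitochondria were followed in rat dorsal root ganglia (DRGs), which hold the cell bodies of sensory neurons. RNA was sequenced from 8 rats, 2 females and 2 males that were naïve and 2 females and 2 males with CCI. All were adult, gonadally intact Sprague-Dawley rats, and each library held the pooled ipsilateral L4-L6 DRGs of 1 rat. CCI is chronic constriction injury, in which ligatures are tied around the sciatic nerve, and these rats were sampled 14 days after it. Naïve rats had no operation, so surgery and nerve injury cannot be told apart, and the pooled ganglia hold injured and spared neurons together.

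Of 32623 genes counted, 32 belonged to the set. A member had at least 10 counts in at least 2 libraries and a symbol of the Nduf, Sdh, Uqcr, Cox, Cycs, Atp5, Timm, Tomm or Chchd families. Symbols were known for 1961 identifiers, those that the study listed as changed in these libraries, so many genes of these families were not named and are not analysed here. Of the members, 18 came from the study's list of genes higher in naïve females than in naïve males and 22 from its list of genes whose response to CCI depended on sex, with 8 in both. These lists used the naïve sex difference and the interaction, so both contrasts, and the response to CCI in each sex, serve as descriptions only. Counts of members past a threshold in them are printed beside the share of all genes, and nothing is read from them. The sexes after CCI were compared by a test for the 18 genes of the naïve list, because that choice did not use the CCI libraries. The lowest count of any member in any library was 575, for Chchd4, so the count minimum did not bear on the choice. At the edge of the naïve list, Cox6b1 was a member of it with a log2 fold change (log2FC) of 0.51 and Ndufab1, also at 0.51, was not.

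The respiratory chain is a series of protein complexes in the inner mitochondrial membrane. Complexes I and II take electrons from NADH and succinate, complex III passes them to cytochrome c, complex IV passes them to oxygen, and the proton gradient that results drives ATP synthase, also called complex V. Most subunits are encoded in the nucleus and enter through the TOM complex of the outer membrane, the TIM complexes of the inner membrane, or the oxidative folding pathway of the intermembrane space. Sensory neurons have very long axons and a high demand for ATP, and many of these genes are known targets of nuclear respiratory factor 1 (NRF1).

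Promoter sequences of 6 members are shown because they hold the letters of the NRF1 site. In the RefSeq table (GRCr8), 27 of 32 members had a promoter of 250 bases before to 50 bases after the start; Ndufa10l1, Ndufa8, Ndufb9, Uqcrb and Tomm34 did not match. The NRF1 palindrome, given by the capitals in the sequences that follow, reads alike on both strands and was in 6 of these 27 promoters (22.2%) and in 0.852% of all 33469 promoters. They belong to Ndufa11, Ndufaf5, Atp5i, Atp5o, Tomm7 and Chchd4. Each is printed 5′ to 3′ on the strand of the gene, with the palindrome in capitals, at chr3:147961567-147961611 (plus strand) for Ndufaf5, chr14:1464754-1464823 (plus) for Atp5i, chr11:44657503-44657572 (minus) for Atp5o, chr4:12197440-12197502 (plus) for Tomm7, chr4:125534714-125534783 (minus) for Chchd4 and chr9:1637487-1637556 (plus) for Ndufa11, which holds 2 overlapping palindromes with the first in capitals.
Ndufa11: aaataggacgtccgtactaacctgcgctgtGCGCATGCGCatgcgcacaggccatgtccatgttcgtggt
Ndufaf5: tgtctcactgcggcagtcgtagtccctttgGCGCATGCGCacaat
Atp5i: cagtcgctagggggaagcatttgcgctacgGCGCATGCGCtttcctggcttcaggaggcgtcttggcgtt
Atp5o: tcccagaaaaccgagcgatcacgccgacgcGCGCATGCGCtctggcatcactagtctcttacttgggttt
Tomm7: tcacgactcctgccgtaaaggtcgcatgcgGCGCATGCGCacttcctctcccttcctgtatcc
Chchd4: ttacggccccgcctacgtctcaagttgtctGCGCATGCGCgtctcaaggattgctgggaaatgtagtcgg

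The shorter NRF1 site GCGCATG, which lies within the palindrome, was found on either strand in 7 of 27 member promoters (25.9%) and 3.77% of all promoters, with Cycs as the member added. The ETS site CCGGAAG was in 7 of 27 (25.9%) against 8.75%, and the CCAAT box was in 10 of 27 (37%) against 37.5%. Member promoters had a median GC content of 56.67%, against 51.67% for all promoters, and the motif shares were not matched for it. Timm8b and Sdhd start on opposite strands of chromosome 8 with 95 bases between their starts, and 1 ETS site lies in the stretch that they share. This stretch is chr8:59850642-59850736 on the plus strand, with the ETS letters in capitals. It is shown because these neighbours differed in direction after CCI in males, while both were lower in females.
Timm8b and Sdhd: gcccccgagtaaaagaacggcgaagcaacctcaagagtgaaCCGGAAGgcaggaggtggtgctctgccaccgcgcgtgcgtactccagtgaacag

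Libraries held 39489103 to 60818457 counts, and the 32 members together took 0.453% to 0.655% of them. All levels are in CPM, read counts scaled to the size of each library, here with TMM normalization over the 8 libraries. The summed level of the members was 4322 and 4660 CPM in the naïve males, 5344 and 5526 in the CCI males, 6582 and 5391 in the naïve females, and 5055 and 5378 in the CCI females. Naïve males were lowest, the 4 CCI libraries lay between 5055 and 5526, and naïve female 1 was above all others. In bulk ganglia, fewer cells of a type and less RNA per cell cannot be told apart. Naïve female 1 had the highest value of the 8 libraries for 27 of 32 members, and naïve male 1 had the lowest for 26 of 32. The choice of members bears on both counts, and the shares over all genes were not counted, so nothing is read from them.

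Naïve female 1 stood apart from the other rat of its group in these genes. It was higher than naïve female 2 for 31 of 32 members, and 49.5% of all 16988 genes tested were higher in it. The members were chosen by contrasts that this library entered, so nothing is read from the count. The median difference between both rats was 0.37 on the log2 scale, or 1.29-fold, and 11 members differed by more than 0.5. The gap was largest for Timm8b, at 1.6-fold, and Tomm34 was the exception, at 0.927-fold. In the other groups rat 1 was higher than rat 2 for 2 of 32 members in naïve males, 12 in the CCI males and 8 in the CCI females. Of all genes tested, 55.3%, 54.2% and 48.6% were higher in rat 1 of these groups. Naïve male 1 was thus also apart from the other rat of its group, in the lower direction, with a median difference of -0.14. Naïve female 2 was above both naïve males for 32 of 32 members. The contrasts that chose the members also used naïve female 2 and the naïve males. The share over all genes was not counted, so nothing is read from this count either.

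**Figure D1:**
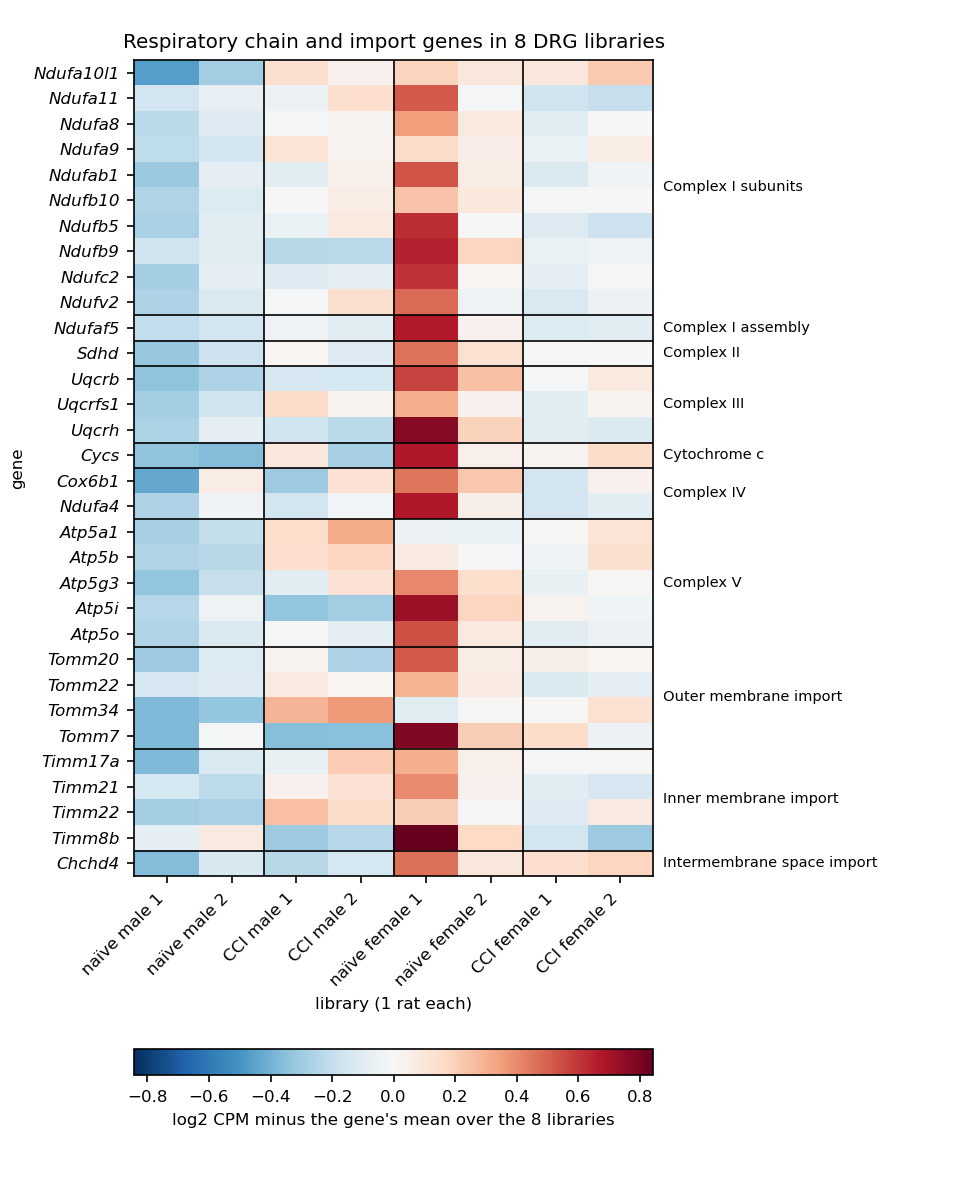
Heat map of the 32 genes (rows, grouped by role) in the 8 libraries (columns, 1 rat each); color is log2 CPM minus the gene's mean over the 8 libraries. Naïve female 1 is the highest library for 27 genes and naïve male 1 the lowest for 26, counts on which the choice of genes bears.

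Females and males were compared after CCI. Among the 18 genes of the naïve list, 13 were higher in CCI females than in CCI males, as were 50.6% of all genes tested, and 5 were lower, with a median log2FC of 0.07, against 0.0028 over all genes tested. None passed edgeR's quasi-likelihood test, for which both an adjusted p under 0.05 and a log2FC beyond 0.5 in either direction were needed, where 1.06% of all genes tested did. Of the 18, 5 had an unadjusted p under 0.05, or 27.8%, where 18.3% of all genes had. These were Tomm7, Chchd4, Atp5i, Uqcrb and Ndufb9, all higher in CCI females. The CCI females lay above both CCI males without overlap for 7 of 18 and below them for 2 of 18, where 24.7% and 26.5% of all genes did so.

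Tomm7, a small subunit that modulates the assembly of the TOM complex, had the largest difference between the sexes after CCI. Its level was 39.7 and 40.0 CPM in the CCI males and 56.6 and 49.1 in the CCI females. In naïve rats it was 39.4 and 50.6 CPM in males and 87.6 and 58.8 in females. Females were above males without overlap in both conditions. The log2FC of CCI females over CCI males was 0.41 ± 0.09 (SE, 2 rats per group, edgeR adjusted p = 0.0981), and 0.31 to 0.51 when 1 library was left out. The promoter of Tomm7 is one of those with the NRF1 palindrome.

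Atp5i encodes the e subunit of ATP synthase, which takes part in the formation of its dimers. It was measured at 59.0 and 60.7 CPM in the CCI males and 75.9 and 72.4 in the CCI females, which did not overlap. Naïve males had 63.0 and 72.2 CPM and naïve females 123 and 84.3. The log2FC after CCI was 0.31 ± 0.07 (edgeR adjusted p = 0.0973). DESeq2 gave an adjusted p of 0.00642 for Tomm7 and 0.00999 for Atp5i, and neither reached its log2FC threshold of 0.5.

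Chchd4, the oxidoreductase that folds imported proteins in the intermembrane space, was at 12.0 and 12.8 CPM in the CCI males and 15.6 and 16.1 in the CCI females. In naïve rats it was at 11.0 and 12.9 CPM in males and 19.6 and 15.1 in females. Both female groups were above both male groups without overlap, and the log2FC after CCI was 0.36 ± 0.09 (edgeR adjusted p = 0.126). Uqcrb, a subunit of complex III, had a log2FC of 0.19 ± 0.07 after CCI (adjusted p = 0.222), and Ndufb9, an accessory subunit of complex I, of 0.19 ± 0.06 (adjusted p = 0.190). Of the 6 members with the NRF1 palindrome in their promoters, Tomm7, Atp5i and Chchd4 were higher in CCI females without overlap. So were 7 of all 32 members and 24.7% of all genes tested. Among the 6, Atp5o, a stalk subunit of ATP synthase, had a log2FC of -0.02 ± 0.06 after CCI and Ndufaf5 of -0.05 ± 0.07. Ndufa11, by -0.22 ± 0.09, and Ndufaf5 were lower in CCI females without overlap. So were 12 of all 32 members and 26.5% of all genes tested. A link between the palindrome and these values was not tested.

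The other 13 genes of the naïve list differed by at most 0.18 in either direction after CCI. Cycs, the electron carrier cytochrome c, had the largest difference between naïve females and males, 0.75 ± 0.21. Its level was 75.4 and 74.1 CPM in the naïve males, 152 and 98.3 in the naïve females, 101 and 78.6 in the CCI males, and 97.0 and 106 in the CCI females. After CCI the sexes overlapped for Cycs, with a log2FC of 0.18 ± 0.12 (adjusted p = 0.489). Ndufb5, an accessory subunit of complex I, was lower in CCI females, by -0.15 ± 0.08 (adjusted p = 0.351). All 18 genes had a smaller log2FC between the sexes after CCI than in naïve rats, a comparison for which the naïve value was fixed by the choice of genes.

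**Figure D2:**
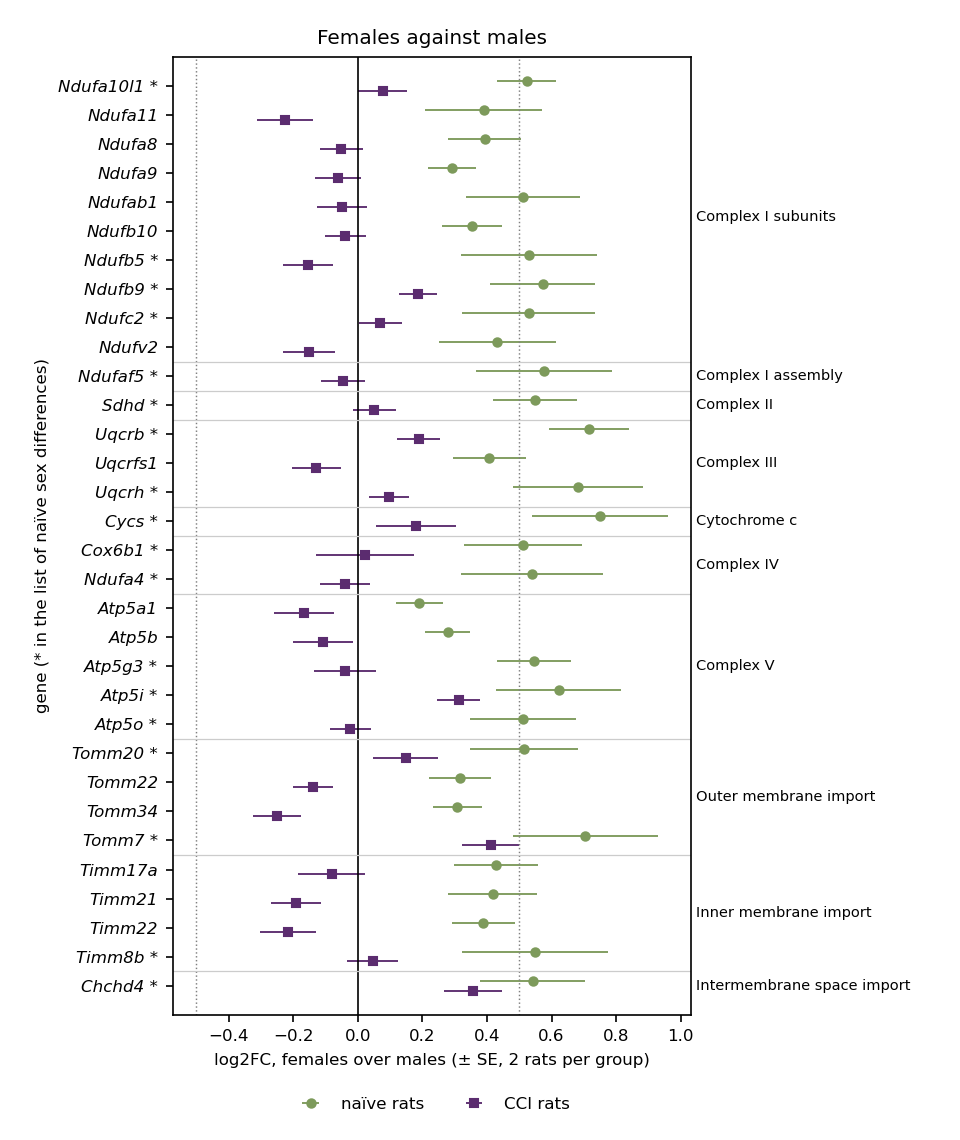
Log2FC of females over males with its SE for each gene in naïve rats (circles) and after CCI (squares), with 2 rats per group; dotted lines mark 0.5 in either direction. All 32 naïve values lie above 0, and the CCI values spread from -0.25 (Tomm34) to 0.41 (Tomm7).

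In naïve rats, all 32 members were higher in females than in males without overlap. The 18 genes of the naïve list were chosen by this difference, and the interaction list was drawn from a term that contains it. Among all genes tested, 49.2% were higher in females, 29.5% without overlap. The log2FC ranged from 0.19 for Atp5a1 to 0.75 for Cycs, with a median of 0.51. None passed both thresholds in edgeR, where 0.0706% of all genes tested did. DESeq2 called 13 members and 5.86% of all genes in the same libraries. The median was 0.28 without naïve female 1 and 0.69 without naïve female 2. By role, the median was 0.47 for the 10 subunits of complex I, 0.68 for the 3 of complex III, 0.51 for the 5 of complex V, 0.42 for the 4 genes of outer membrane import and 0.42 for the 4 of inner membrane import.

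The levels in complex I show this pattern. Ndufv2, which carries an iron-sulfur cluster in the NADH-oxidizing arm, was at 139 and 153 CPM in the naïve males, 166 and 183 in the CCI males, 232 and 162 in the naïve females, and 152 and 161 in the CCI females. Naïve female 2 was within the range of the CCI libraries, and naïve female 1 was above them. Ndufa11, a membrane arm subunit with 2 NRF1 palindromes in its promoter, was at 56.4 and 60.2 CPM in the naïve males, 61.1 and 69.5 in the CCI males, 90.1 and 62.3 in the naïve females, and 56.3 and 55.2 in the CCI females. Ndufaf5, an assembly factor that modifies a core subunit, was at 33.4 and 34.5 CPM in the naïve males, 37.8 and 36.3 in the CCI males, 61.3 and 39.5 in the naïve females, and 35.5 and 36.0 in the CCI females. For both genes naïve female 1 alone was far from the rest. The other complex I subunits were Ndufa8, Ndufa9, Ndufa10l1, Ndufab1, Ndufb5, Ndufb9, Ndufb10 and Ndufc2, of which Ndufa10l1 may share reads with its near copy Ndufa10.

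Sdhd, a membrane anchor of complex II, was at 87.9 and 97.0 CPM in the naïve males, 111 and 101 in the CCI males, 150 and 120 in the naïve females, and 109 and 110 in the CCI females. In complex III, Uqcrh, the hinge protein at the cytochrome c side, was at 138 and 158 CPM in the naïve males, 148 and 142 in the CCI males, 283 and 190 in the naïve females, and 156 and 153 in the CCI females. Uqcrh stood out in the naïve females, while its other 6 libraries lay between 138 and 158. Uqcrb was at 54.6 and 57.8 CPM in the naïve males, 62.7 and 62.3 in the CCI males, 102 and 82.0 in the naïve females, and 68.7 and 73.2 in the CCI females. The Rieske iron-sulfur protein Uqcrfs1 was higher in CCI males than in naïve males, with a log2FC of 0.33 ± 0.08.

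In complex IV, Ndufa4, a subunit once assigned to complex I, was at 215 and 252 CPM in the naïve males, 232 and 253 in the CCI males, 410 and 266 in the naïve females, and 230 and 240 in the CCI females. Naïve male 2, CCI males and CCI females were close together, and naïve female 1 was again far above. Cox6b1, which joins the monomers of complex IV, was at 66.1 and 93.2 CPM in the naïve males, 72.2 and 97.4 in the CCI males, 122 and 104 in the naïve females, and 80.3 and 91.5 in the CCI females. In both male groups rat 1 was well below rat 2 for Cox6b1.

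ATP synthase held members with unlike patterns. Atp5b, the catalytic beta subunit, was at 1186 and 1200.4 CPM in the naïve males, 1562 and 1604 in the CCI males, 1486 and 1401 in the naïve females, and 1383 and 1548 in the CCI females. Atp5a1, the alpha subunit, was at 499.6 and 527 CPM in the naïve males, 673 and 751 in the CCI males, 586 and 582 in the naïve females, and 609 and 658 in the CCI females. For both genes the naïve females were close to each other and the naïve males were the lowest group. Atp5i, and Atp5g3 of the membrane ring, were instead highest in naïve female 1. Atp5g3 encodes the same mature protein as other Atp5g genes, and reads could be shared among them.

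**Figure D3:**
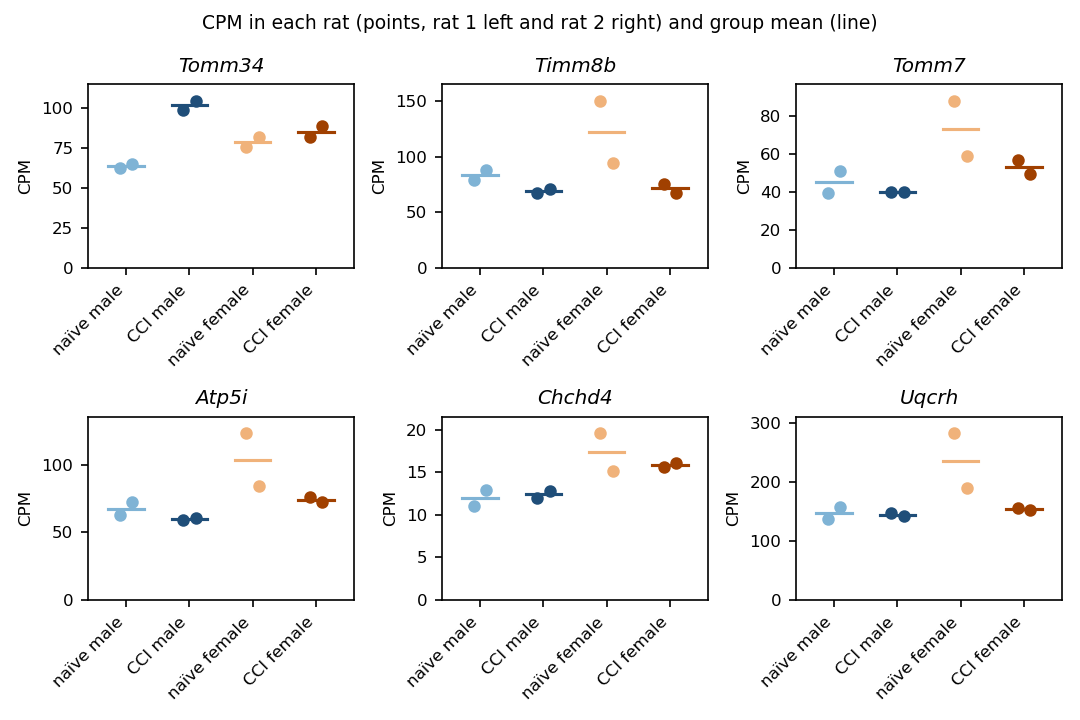
CPM of 6 genes in each rat (points) with the group mean (line), by group, on axes that start at 0. Tomm34 is highest in CCI males, Timm8b and Uqcrh are highest in naïve female 1, and Tomm7, Atp5i and Chchd4 are higher in females than in males both in naïve rats and after CCI.

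The response to CCI was described in each sex. In males 27 of 32 members were higher after CCI, as were 49% of all genes tested, and 5 were lower, with a median log2FC of 0.18 and a range from -0.27 for Timm8b to 0.68 for Tomm34. Of the members 1, Tomm34, passed both thresholds, where 21.6% of all genes tested did and 9.05% in the higher direction. Tomm34, a cytosolic co-chaperone of proteins on their way to mitochondria, was at 62.6 and 64.8 CPM in the naïve males and 98.8 and 104 in the CCI males. In females it was at 75.7 and 81.7 CPM in naïve and 81.5 and 88.7 in CCI rats. Males did not overlap, while CCI female 1 lay within the naïve range of its sex. Its log2FC was 0.68 ± 0.07 in males and 0.10 ± 0.09 in females. Without CCI male 1 the log2FC in males was 0.72, and no gene tested, Tomm34 included, was called.

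In males 8 members had an adjusted p under 0.05 whatever their log2FC, where 38% of all genes tested had, and all 8 were on the interaction list. Besides Tomm34 they were Ndufa9, Ndufa10l1, Uqcrfs1, Atp5a1, Atp5b, Timm21 and Timm22. Timm22, the channel for carrier proteins of the inner membrane, had a log2FC of 0.49 ± 0.07 in males, with 41.0 and 41.8 CPM in naïve and 60.1 and 56.0 in the CCI males. In females it was at 58.2 and 49.9 CPM in naïve and 46.6 and 53.0 in CCI rats, which overlapped. Timm21, which links the TIM23 complex to the TOM complex, and Timm17a, a part of the TIM23 channel, had log2FCs of 0.27 ± 0.07 and 0.33 ± 0.14 in males.

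In females 28 of 32 members were lower after CCI and 4 were higher, as were 47.6% of all genes tested, with a median log2FC of -0.33. Of the members 1, Timm8b, passed both thresholds, where 5.69% of all genes tested did and 2% in the lower direction. Timm8b belongs to the small TIM chaperones, which guide hydrophobic proteins across the intermembrane space. It was at 150 and 94.1 CPM in the naïve females and 75.1 and 67.8 in the CCI females, and at 79.0 and 88.3 in naïve and 67.8 and 71.0 in the CCI males. CCI rats were below naïve rats of their sex without overlap in both sexes, by -0.78 ± 0.19 in females and -0.27 ± 0.08 in males. Sdhd, which starts 95 bases away, was lower after CCI in females, by -0.31 ± 0.11, and higher in males, by 0.20 ± 0.09.

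The values in females depended on the naïve rat used. Without naïve female 1 the median log2FC of the members was -0.15, and no member and 7.35% of all genes passed in edgeR. Without naïve female 2 it was -0.52, and 17 members and 10.8% of all genes passed. For Timm8b the log2FC was -0.41 without naïve female 1. Of the 4 members that were higher after CCI in females, Atp5a1 and Tomm34 had log2FCs of 0.11 ± 0.08 and 0.10 ± 0.09, and Atp5b and Ndufa10l1 had 0.01 ± 0.09 and 0.0038 ± 0.08.

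**Figure D4:**
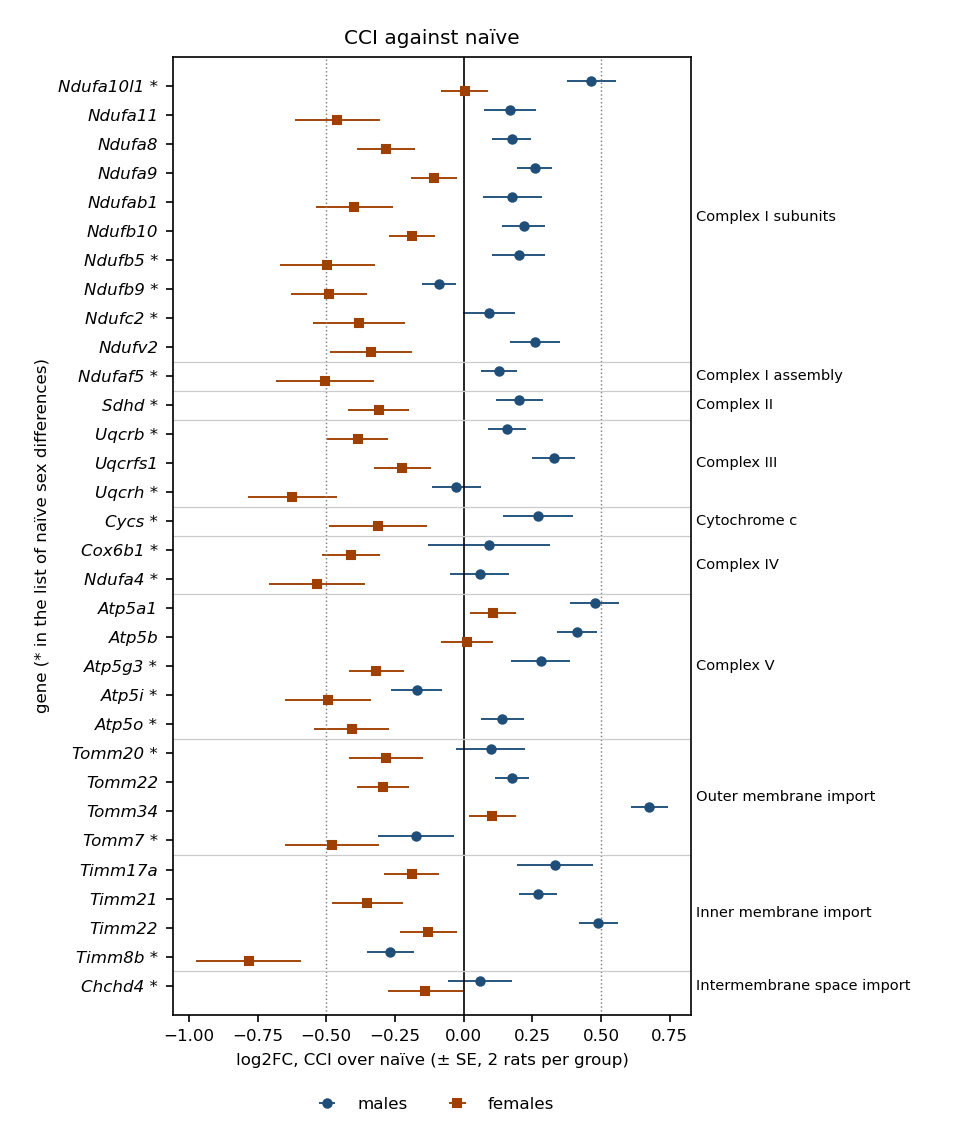
Log2FC of CCI over naïve rats with its SE for each gene in males (circles) and females (squares), with 2 rats per group; dotted lines mark 0.5 in either direction. The male value lies above the female value for all 32 genes, and Tomm34 in males (0.68) and Timm8b in females (-0.78) lie farthest from 0.

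The interaction term, the log2FC after CCI in females minus that in males, was below 0 for 32 of 32 members and above 0 for 51.5% of all genes tested, with a median of -0.51 and a range from -0.69 for Ndufb5 to -0.18 for Chchd4. The interaction list was drawn from this term, and a gene of the naïve list enters it with a minus for being higher in naïve females. Only Tomm34 passed an adjusted p under 0.05 in edgeR, at 0.0499, where 1.59% of all genes tested did and 0.547% in the lower direction. DESeq2 called 23 members and 9.52% of all genes. The median was -0.31 without naïve female 1. The 14 genes that were only on the interaction list were lower in CCI females than in CCI males in 14 of 14 cases, with a median of -0.13. Of all 16988 genes tested, 8396 were lower. The interaction term contains this difference between the sexes, so the choice of the 14 genes bears on it and nothing is read from the count. Tomm34 had the lowest value among the 14, -0.25 ± 0.07. Tomm20, a receptor of the TOM complex from the naïve list, was at 108 and 124 CPM in the naïve males, 137 and 111 in the CCI males, 191 and 140 in the naïve females, and 138 and 136 in the CCI females. Its log2FC between CCI females and CCI males was 0.15 ± 0.10, and that of the receptor Tomm22, from the interaction list, was -0.14 ± 0.06.

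Levels of other gene groups also differed between the groups of rats, some of them opposite to the members. Their part in these results was not tested. These groups also drew their symbols from the lists of changed genes, so their counts of called genes are descriptions. Of all 16988 genes tested, 1537 were called higher and 2126 lower after CCI in males, and 627 higher and 340 lower in females. The 9 neuron markers with an identifier, among them Nefl, Uchl1 and Scn9a, were detected in every library, summing to 19136 to 21609 CPM in the naïve males, 31362 to 32093 in the CCI males, 23624 to 24322 in the naïve females, and 24672 to 29280 in the CCI females. All 9 were higher in CCI males than in naïve males, 8 of them called, with a median log2FC of 0.65, against 0.18 for the members. In females 1 of 9, Scn9a, was called higher after CCI, and the median was 0.18, against -0.33 for the members. The 8 Schwann cell and myelin genes, among them Mbp and Mag, summed to 11108 to 13525 CPM in the naïve males, 3391 to 3542 in the CCI males, 7785 to 9550 in the naïve females, and 4343 to 5627 in the CCI females. All 8 were called lower after CCI in males and 3 in females.

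A list of 24 splicing factors and nuclear transcripts that retain introns was highest in naïve males, at 5704 to 6907 CPM, against 3212 to 4172 in the other 6 libraries. All 24 were lower in CCI males than in naïve males, 21 of them called. Naïve males were the group with the lowest members and the highest splicing list. The 8 muscle genes were called lower in CCI females than in CCI males in 8 of 8 cases, where 91 of all 16988 genes tested were. They summed to 113 to 119 CPM in the CCI males and 27 to 47 elsewhere. The 8 red blood cell genes summed to 1589 to 2371 CPM in the naïve females, 140 to 1528 in the naïve males and 197 to 276 after CCI. The 3 genes of antigen presentation, Cd74, RT1-Da and RT1-Db1, were higher in females by a median of 0.73 in naïve rats and 0.68 after CCI, and Fabp7, the satellite glia marker with an identifier, was called lower after CCI in both sexes.

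**Figure D5:**
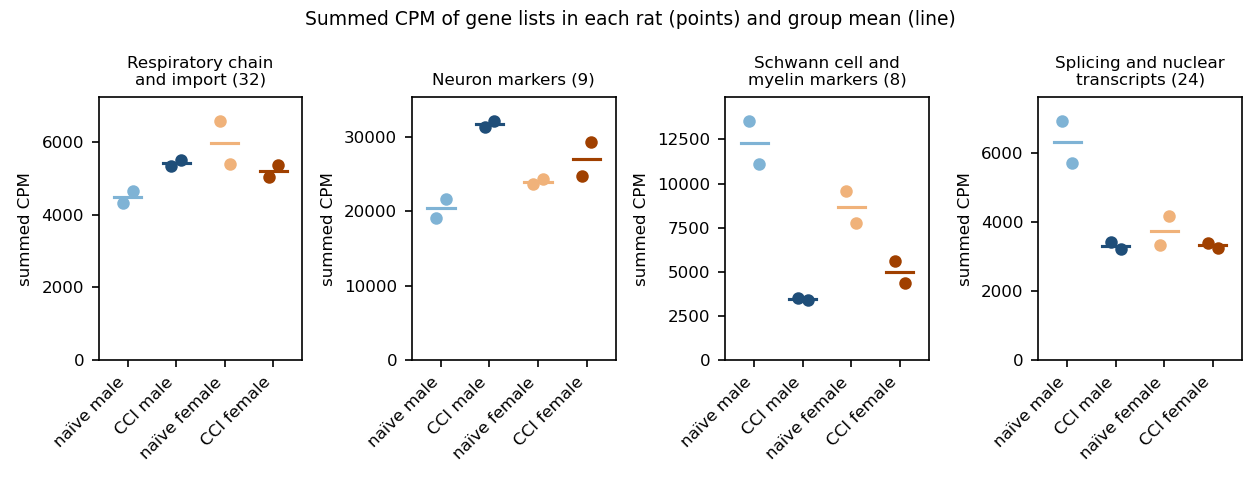
Summed CPM of the 32 members, 9 neuron markers, 8 Schwann cell and myelin markers and 24 splicing and nuclear transcripts in each rat (points) with the group mean (line). Naïve males are lowest for the members and the neuron markers and highest for the myelin and splicing lists.

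The other mitochondrial genes with an identifier numbered 32, also from the lists of changed genes, so nothing is read from their counts. In CCI males against naïve males 28 were higher and 4 lower, with a median log2FC of 0.36. Of the 32, 7 were called higher, as were 9.05% of all genes tested, and 2 lower, as were 2126 of all 16988. Among the 32 were the matrix enzymes Mdh2 and Fh of the citric acid cycle, each with a log2FC of 0.50 ± 0.07. The 32 also held Mdh1, the cytosolic form of malate dehydrogenase, with a log2FC of 0.57 ± 0.07. Dnm1l, the fission GTPase, rose by 0.72 ± 0.06, Ttc19, an assembly factor of complex III, by 0.67 ± 0.08, and the coenzyme A carrier Slc25a42 fell by 0.85 ± 0.07 on the log2 scale. In CCI females against naïve females 1 was called, where 5.69% of all genes tested were. It was Usmg5, a small subunit of ATP synthase, with a log2FC of -0.99 ± 0.20. Usmg5 was at 165 and 103 CPM in the naïve females and 62.0 and 73.3 in the CCI females, and at 59.9 and 68.6 in naïve and 52.3 and 68.2 in the CCI males, so that naïve females alone were high. Between the sexes after CCI none of the 32 passed both thresholds in edgeR, where 1.06% of all genes tested did. An unadjusted p under 0.05 was found for 9 of the 32 and for 18.3% of all genes. The isocitrate dehydrogenase subunit Idh3g led the 9, at -0.28 ± 0.06.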

How the data were processed

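RNA of 8 DRG libraries was sequenced after poly(A) selection with a strand-specific kit. The authors aligned reads to rn6 with HISAT2 and deposited raw read counts per Ensembl gene from featureCounts, with no normalization; base calling used CASAVA 1.8.2 per the submitters' processing notes. Sequencing ran in 2 batches that are not named per library, so batch could not be modelled. The deposited columns of naïve male 1 and CCI male 1 carry an extra letter that is not explained, and whether counting used strand is not given in the sources used here. Gene symbols were taken from the study's lists of changed genes, as identifier and symbol pairs only. The members, lists and tests were chosen with earlier results of these data known.

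edgeR's filterByExpr (minimum count 10 and minimum total 15, over the 8 libraries) left 16988 genes, and all 32 members. In R 4.3.3, edgeR 4.0.16 with TMM and the quasi-likelihood test compared 2 groups on their 4 libraries, or tested the interaction on all 8. P-values were adjusted by Benjamini-Hochberg over all genes. Calls required an adjusted p below 0.05 together with a log2FC beyond 0.5 in either direction, and for the interaction only the former. The SE is the log2FC divided by the square root of F. With 2 rats a group, p-values rest on few residual degrees of freedom. Libraries held 39489103 to 60818457 counts, and each member at least 575. Counting error was not compared with the spread between rats, which was small for some members. For Chchd4 in the CCI females the SD was 0.31 CPM at a mean of 15.9 CPM, from 605 and 628 counts. Values in every library are given for called members and, for each role, for the member with the largest sex difference after CCI and the one with the highest level; of the other mitochondrial genes, up to 3 per comparison with the smallest p are named. Cox6b1, Atp5a1, Mdh1, Mdh2, Fh and the marker genes given as examples were chosen after their values were seen. Alternatives were DESeq2 1.42.0, other scalings and filters, a fit over all libraries, a replicate block and leaving out each library. Scripts were tested on simulated data.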

Additional observations from a re-analysis of the deposited data

Results flagged for a closer look

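For Tomm34, edgeR's interaction term, the log2FC after CCI in females minus that in males, was -0.56 ± 0.10. Its edgeR adjusted p across all genes was 0.0499, just under the threshold of 0.05. In males Tomm34 was higher in both CCI rats than in both naïve rats, and in females the groups overlapped. Tomm34 became a member only through the interaction list of the study, which was drawn from this contrast in the same libraries, so the value is a description and no test of a difference between the sexes. It passed in no fit that left out 1 library, and the term there ranged from -0.62 to -0.50.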

How the results depend on the processing

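With 2 rats per group, counts of called members changed with the tool and with single libraries, while no called member changed sign under any alternative and, of the medians over the members, that between CCI females and CCI males alone did, near 0. In naïve females against naïve males, DESeq2 called 13 members (996 of all genes, where edgeR called 12), the edgeR fit over all 8 libraries 7 (906) and the fit with no filter on low counts 1 (262), in place of 0. In CCI males against naïve males, 2 members were called with no filter (3666 of all genes) and 8 with no log2FC threshold (6447), in place of 1 (3663), and 0 to 4 with 1 library left out (0 to 3722). In CCI females against naïve females, 4 were called by DESeq2 (1140 of all genes), 2 with upper-quartile normalization (1023) and 2 with no filter (1250), in place of 1 (967), and 0 to 17 with 1 library left out (84 to 1836). For the interaction, 23 were called by DESeq2 (1618 of all genes, where edgeR called 270), 0 with upper-quartile normalization (299) and 7 with no filter (1032), in place of 1, and 0 to 18 with 1 library left out (0 to 563). Between CCI females and CCI males no alternative called a member; of all genes, DESeq2 called 394 and the fit with no filter 297, where edgeR called 180. With 1 library left out, the median of the members was -0.0739 to 0.00977 in that comparison and -0.66 to -0.31 for the interaction. Other counts over all genes that moved were 0 in naïve rats and 532 for the interaction with at least 10 counts in every library, and, with no log2FC threshold, 1560 in CCI females against naïve females. Where the cause is not the smaller number of samples or genes, the cause was not tested.

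The replicate numbers are shared by the groups, but no source says that they mark a litter, batch or day. With the replicate number as a block, 3 members were called in CCI females against naïve females (1180 of all genes), in place of 1, and no other count of called members changed; of all genes, the block called 68 between the sexes after CCI, in place of 180, and 6 between naïve rats, in place of 12. Across all genes, the difference between rats 1 and 2 correlated between naïve and CCI males (r = 0.73), and the other 5 pairs of groups gave -0.02 to 0.14. The members had 575 counts or more in every library, and the share of counting error in the spread between rats was not measured.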

Other observations

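Subunits of the vacuolar proton pump, which acidifies lysosomes and synaptic vesicles, and of the proteasome were also read from the lists of changed genes. These lists used the naïve sex difference and the interaction, so the counts here are descriptions. Of all genes tested, 9.05% were called higher in CCI males than in naïve males. In CCI females against naïve females 5.69% were called in either direction. Of 8 subunits of the pump, 5 were called higher in CCI males than in naïve ones (median log2FC 0.60), and none was called in CCI females against naïve females (median 0.10). They summed to 1736 to 1795 CPM in the naïve males, 2668 to 2685 in the CCI males, 2153 to 2170 in the naïve females and 2299 to 2537 in the CCI females. Of 6 proteasome subunits, 2 were called higher in CCI males, with a median of 0.42, and none in CCI females, with a median of 0.00. Both counts of called genes in females come from edgeR. An unadjusted p under 0.05 was found there for 3 of the 8 pump subunits and 0 of the 6 proteasome subunits. Of all 16988 genes tested, 4882 had such a p.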
